A study of Mus musculus with 25 samples.

Results

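The genes described here are 10 members of the leukaemia inhibitory factor (LIF) and STAT3 signalling route: the receptor chains Lifr and Il6st, the kinase Jak1, the transcription factor Stat3, the feedback inhibitor Socs3, and the reported STAT3 targets Pim1, Pim3, Gbx2, Junb and Bcl3. They were taken by gene symbol, and all 10 were found among the 35731 genes of the mouse embryonic stem cell (mESC) table and the 24062 genes of the embryo table. The set was chosen partly on measured values, because Socs3 was known to be lower in inhibitor-treated embryos. Embryo values of the members are therefore descriptions without a test, while the mESC values are tested.

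The study compared histone H3 lysine 79 methylation and RNA with and without loss or inhibition of the methyltransferase DOT1L. Chromatin immunoprecipitation (ChIP) for H3K79me2 and H3K79me3 and RNA sequencing were done in v6.5 mESCs, either wild type (WT) or Dot1L KO, with no treatment in either. The second RNA set came from 8-cell embryos of the cross B6D2F1 x Cast/EiJ, all wild type, exposed either to DMSO, the solvent control, or to SGC0946, a DOT1L inhibitor. RNA was available for 3 WT and 2 KO mESC libraries and for 2 DMSO and 2 SGC0946 embryo libraries, and ChIP with input for 2 libraries per genotype and mark. The labels do not give the culture medium of the mESCs, so the presence of LIF in it is not known, nor do they give the deleted stretch of Dot1l, the number of KO clones, or the dose and length of inhibitor exposure. Each embryo library was made from a pool of 30 to 35 embryos taken 56 hours after fertilization. Nothing states that the mESC replicates were separate cultures, so p-values measure only the spread between these libraries. In these bulk samples, fewer cells of a type and less RNA per cell cannot be told apart.

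LIF binds a receptor made of LIFR and gp130, the product of Il6st, and brings JAK1 to phosphorylate STAT3, which enters the nucleus and activates transcription. SOCS3 is made in response to STAT3 and binds gp130 and JAK kinases to shut the signal down. In mouse ES cells this route maintains self-renewal, and H3K79 methylation marks the transcribed 5′ part of active genes.

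Total counts per library ran from 26860527 to 33755064 in mESCs and from 24950199 to 32479590 in embryos. Levels are given as CPM, the count scaled to a fixed library size after TMM normalization, and log2 fold changes come from edgeR's quasi-likelihood fit over all genes that passed its low-count filter. All 10 members passed that filter in both tables. Dot1l, the targeted gene, had a mean of 100.1 CPM (SD 3.79) over the WT libraries and 76.5 CPM (SD 7.0) over the KO libraries, which is not a check of the deletion because the part removed is not given. All 6 mESC markers examined were present at 1 CPM or more, with a summed level of 3413 to 3450 CPM in WT and 2672 to 2810 in KO. Of these, 4 were lower in KO at an edgeR adjusted p under 0.05, against 21.6% of all tested genes. They were Nanog, Zfp42, Dppa5a and Pou5f1, with log2 fold changes of −1.02, −0.46, −0.30 and −0.21. Sox2 (−0.06) and Esrrb (−0.07) did not pass. Of 9 fibroblast markers, 8 were at 1 CPM or more, and their sum was 164 to 207 CPM in WT and 211 to 263 in KO. The embryo libraries held all 6 markers examined for the 8-cell stage, summing to 2141 to 2285 CPM under DMSO and 1562 to 1951 under SGC0946. Pou5f1 and Zfp42 are on both this list and that for mESCs. No cumulus cell marker of 7 reached 1 CPM, and Ptx3, Fshr and Inhba were at 0 in every embryo library.

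Because STAT3 binds the palindrome TTCNNNGAA, with N any base, the 250 bases before the RefSeq start sites of the members were searched for it. The motif reads the same on both strands. It occurred in 1 of 12 member promoters, that of Socs3, against 7.02% of all 32851 promoters in the RefSeq table. A match is a description of letters and says nothing of binding in these cells. The Socs3 promoter is shown with the match in capitals, and those of Junb and Pim1, the targets that rose and fell most in KO mESCs, stand beside it. The positions are chr11:117969367-117969616 (minus strand), chr8:84978749-84978998 (minus strand) and chr17:29490535-29490784 (plus strand) of GRCm38.p6, from RefSeq.
Socs3: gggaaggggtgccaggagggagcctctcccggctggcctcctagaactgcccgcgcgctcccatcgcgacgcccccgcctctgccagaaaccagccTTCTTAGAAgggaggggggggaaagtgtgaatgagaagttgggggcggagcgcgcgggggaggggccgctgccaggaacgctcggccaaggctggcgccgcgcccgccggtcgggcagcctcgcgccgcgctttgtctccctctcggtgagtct
Junb: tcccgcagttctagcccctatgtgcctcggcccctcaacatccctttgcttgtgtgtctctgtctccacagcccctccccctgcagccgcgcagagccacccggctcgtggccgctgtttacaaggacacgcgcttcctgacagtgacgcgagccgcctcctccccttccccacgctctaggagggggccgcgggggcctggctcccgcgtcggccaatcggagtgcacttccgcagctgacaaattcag
Pim1: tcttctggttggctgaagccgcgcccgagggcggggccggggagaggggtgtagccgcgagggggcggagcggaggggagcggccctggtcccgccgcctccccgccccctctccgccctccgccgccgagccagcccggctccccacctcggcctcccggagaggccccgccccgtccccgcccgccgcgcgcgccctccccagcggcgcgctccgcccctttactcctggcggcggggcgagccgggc
The Socs3 match begins 154 bases before the start site, in a window with 71.6% G and C. RefSeq's span for Socs3, chr11:117966079-117970336, also reaches beyond this start site on the upstream side. No WT H3K79me2 or H3K79me3 peak overlapped any of these 3 windows.

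In Dot1L KO mESCs the members did not move as a block: the inhibitor Socs3 rose 2.12-fold, Junb and Gbx2 rose by less, and the receptor chains Il6st and Lifr and the kinase gene Pim1 fell. Jak1, Stat3, Pim3 and Bcl3 did not pass the test. At a threshold of 0.05 on the adjusted p, 6 of the 10 members passed, 3 of them risen and 3 fallen. Over all 19532 genes tested, 43.9% passed, 22.3% higher and 21.6% lower, so a passing call was common in this comparison. The members' median log2 fold change was 0.04 and their median absolute log2 fold change 0.21, against 7.81e-04 and 0.24 over all genes tested. With upper-quartile scaling, 4 members were higher and 2 lower, and over all genes the split went from 4351 higher and 4221 lower to 5503 and 3168.

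**Figure D1:**
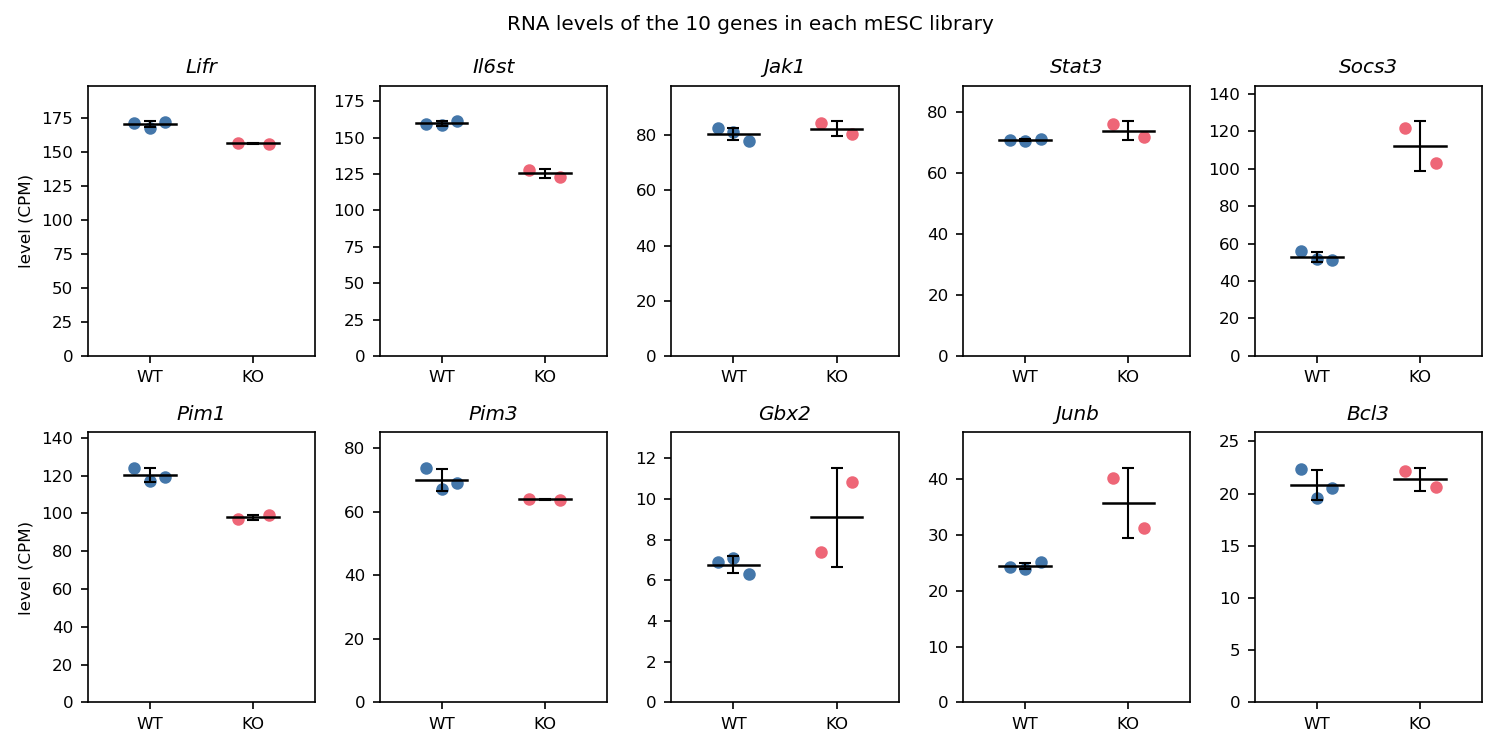
RNA level in CPM (vertical axes, from 0) of the 10 genes in each mESC library, with WT (3 libraries) and Dot1L KO (2 libraries) side by side; points are libraries, and lines and bars are the mean and SD. Socs3 shows the widest separation, 51.3 to 55.9 CPM in WT and 103 to 121 in KO, while the Jak1 and Bcl3 groups overlap.

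Among the receptors, Il6st, which encodes the shared signal-transducing chain gp130, stood at 159, 158 and 161 CPM in the WT libraries and at 128 and 123 in KO. All KO values lay below all WT values, and the log2 fold change was −0.35 (SE 0.04, edgeR adjusted p = 2.15e-05). Lifr, the chain that gives the complex its specificity for LIF, stood at 171, 168 and 172 CPM in WT and 157 and 156 in KO. Its groups did not overlap either, but the log2 fold change was only −0.12 (SE 0.04, edgeR adjusted p = 0.0229). The Lifr call was lost with upper-quartile scaling (adjusted p = 0.266) and without WT replicate 1 (0.0797) or WT replicate 3 (0.0889).

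The signal transducers themselves were nearly level. Jak1, the kinase bound to gp130, had 82.5, 81.0 and 78.0 CPM in WT and 84.3 and 80.5 in KO, which overlapped, with a log2 fold change of 0.03 (SE 0.05, edgeR adjusted p = 0.613). Stat3 had 70.9, 70.4 and 71.1 CPM in WT and 76.0 and 71.7 in KO. The KO values were both above WT, with a log2 fold change of 0.06 (SE 0.05, edgeR adjusted p = 0.327), and upper-quartile scaling turned this into a passing call (adjusted p = 0.0424). Reads over Jak1 and Stat3 can also come from overlapping annotated genes, Raver2 and the non-coding Gm46295 among them, and the strand setting of the counting is not given in the sources used here.

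Socs3 moved most. Its counts were 1542, 1681 and 1473 in WT and 3459 and 3164 in KO, or 55.9, 51.7 and 51.3 CPM against 121 and 103 CPM. Both KO libraries lay far above the WT libraries, with means of 52.9 ± 2.54 CPM (SD, n = 3) for WT and 112 ± 13.2 CPM (SD, n = 2) for KO. The log2 fold change was 1.08 (SE 0.07, edgeR adjusted p = 5.05e-08), and it lay between 0.96 and 1.2 in all 13 alternative settings. It was the only member with a passing change of at least 1 on the log2 scale. The summed fibroblast markers were also higher in KO, with Col1a1, their most abundant gene, at 59.2, 56.1 and 41.2 CPM in WT and 89.2 and 71.2 in KO. Of the 9 markers, 4 passed, all higher (Col1a1, Thy1, Pdgfrb and Postn), where 43.9% of all tested genes passed and 22.3% were higher. Col1a2, Col3a1, Dcn and Twist1 had log2 fold changes of 0.29, −0.14, −0.12 and −0.04 and did not pass. Lum was too low to be tested. The part of these markers in the rise of Socs3, Junb and Gbx2 was not tested.

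The STAT3 targets split by gene. Junb, an AP-1 transcription factor induced early by the pathway, stood at 24.2, 24.0 and 25.1 CPM in WT and 40.2 and 31.3 in KO. The groups were well apart, although the KO libraries differed from each other, and the log2 fold change was 0.55 (SE 0.09, edgeR adjusted p = 2.14e-04). Without KO replicate 1 it was 0.36 and still passed. Gbx2, a homeobox factor that supports self-renewal when overexpressed, had 6.88, 7.10 and 6.30 CPM in WT and 7.37 and 10.8 in KO, so that a single KO library was well above WT. Its log2 fold change was 0.43 (SE 0.14, edgeR adjusted p = 0.0257), and without KO replicate 2 it was 0.12 (adjusted p = 0.49). Leaving out WT replicate 3 also ended the Gbx2 call (adjusted p = 0.0763).

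The Pim genes encode related serine/threonine kinases that favour survival. Pim1 stood at 124, 117 and 119 CPM in WT and 96.9 and 99.0 in KO, all KO values below WT, with a log2 fold change of −0.29 (SE 0.05, edgeR adjusted p = 1.87e-04). Pim3 stood at 73.8, 67.0 and 69.2 CPM in WT and 64.0 and 63.8 in KO. Its values did not overlap and its log2 fold change of −0.13 (SE 0.05) missed the threshold with an edgeR adjusted p of 0.0557, while without the low-count filter it passed at 0.0345 and without WT replicate 2 at 0.0441. Bcl3, a nuclear cofactor of NF-kappa-B linked to STAT3 in ES cells, had 22.4, 19.6 and 20.5 CPM in WT and 22.2 and 20.6 in KO. These overlapped, and the log2 fold change was 0.04 (SE 0.07, edgeR adjusted p = 0.685). Pim1, Pim3 and Bcl3 each overlap another annotated gene, Gm26885, Gm33049 and Gm16174, so their counts carry the same uncertainty about strand.

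A wider list of 45 genes of the pathway, all tested in mESCs, held 14 that rose, 9 that fell and 22 that did not pass in KO, or 51.1% passing, against 43.9% over all genes tested. Its median log2 fold change was 0.07. With DESeq2, 16 of the 45 passed, 9 higher and 7 lower, and 6765 of all 19532 genes passed in place of 8572. Upper-quartile scaling gave 16 higher and 5 lower, and leaving out KO replicate 1 gave 10 higher and 4 lower.

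Of 11 ligands and receptors, 2 rose and 2 fell, or 36.4% passing. Over all tested genes 43.9% passed, 22.3% higher and 21.6% lower. Osm, which encodes the cytokine oncostatin M, fell from 2.24 ± 0.16 CPM (SD, n = 3) to 0.291 ± 0.14 (SD, n = 2), a log2 fold change of −2.95 (SE 0.30). Cntfr, the receptor subunit for ciliary neurotrophic factor, rose from 2.18 ± 0.47 to 5.40 ± 0.06 CPM, a log2 fold change of 1.31 (SE 0.17). Il11ra1, a subunit for interleukin 11, rose by 0.55 on the log2 scale with an adjusted p of 0.0195 in edgeR. DESeq2 gave 0.0553, and the call was also lost without WT replicate 2 (0.0807), WT replicate 3 (0.0607) or KO replicate 1 (0.109). Of 9 kinases and STATs, 2 rose and none fell, or 22.2% passing, a smaller share than over all tested genes. Jak2 rose from 12.7 ± 0.33 to 19.8 ± 1.13 CPM and Stat2 from 26.9 ± 1.76 to 36.1 ± 2.43 CPM.

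Of 15 inhibitors of the pathway other than Socs3, 4 rose and 5 fell, or 60% passing, against 43.9% over all tested genes. Socs1, a related inhibitor of JAK kinases, rose by 0.60 on the log2 scale from 1.80 ± 0.32 CPM (edgeR adjusted p = 0.0234), but DESeq2 gave 0.0954, and the call was also lost without WT replicate 2 (0.0856), WT replicate 3 (0.0745) or KO replicate 2 (0.114). Socs6 fell by 0.25 and Pias2, a SUMO ligase, fell by 0.22 on the log2 scale. Of 10 further genes known to respond to LIF or STAT3, 6 rose, 2 fell and 2 did not pass, with a median log2 fold change of 0.40. That is 80% passing, where 22.3% of all tested genes were higher and 21.6% lower. Ier3, an immediate early gene, rose from 17.2 ± 0.44 to 56.6 ± 8.25 CPM, Fos from 6.02 ± 1.08 to 14.3 ± 1.01 and Myc from 16.2 ± 0.91 to 30.8 ± 9.25, log2 fold changes of 1.72, 1.26 and 0.93. Without KO replicate 2, the Myc value was 0.58. Zfp36, which promotes mRNA decay, rose by 0.51 on the log2 scale. Tfcp2l1 and Klf5, transcription factors of the naive state, moved in opposite directions, Tfcp2l1 from 386 ± 5.74 to 531 ± 15.5 CPM and Klf5 from 339 ± 9.52 to 239 ± 28.8 CPM. Ier3, Fos, Myc and Zfp36, like Junb, are genes that many stimuli other than LIF also induce.

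**Figure D2:**
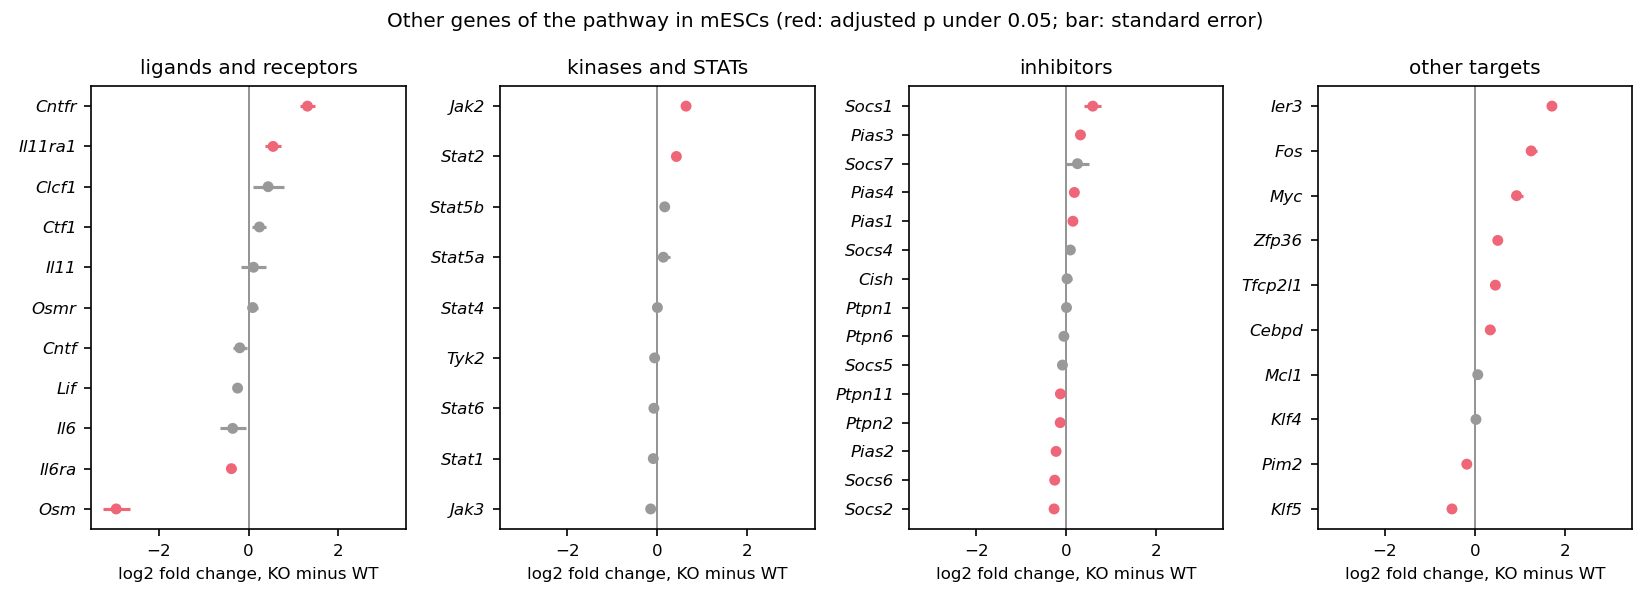
Log2 fold change, KO minus WT (horizontal axes), of the 45 other genes of the pathway in 4 groups; points are fitted values with their standard error, red where the adjusted p was under 0.05. The further targets hold 6 risen and 2 fallen genes, where 22.3% of all tested genes were higher and 21.6% lower. Osm (−2.95) and Ier3 (1.72) are the outermost points.

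In 8-cell embryos, Socs3 was lower under SGC0946 than under DMSO, as the choice of the set had it, and Pim1 was lower as well, while the other 8 members had log2 fold changes above 0. Over the whole embryo table, 0 of 14351 genes passed in edgeR (0.0%), with 1169 at an unadjusted p under 0.05 and 126 called by DESeq2, and leaving out SGC0946 replicate 2 gave 365 edgeR calls. Among members, 3 were higher and 2 lower with no overlap between groups, against 20.1% of all genes higher and 19.2% lower in that way. The median log2 fold change was 0.31 for the members and 0.01 for all genes, of which 48.6% were below 0. Without DMSO replicate 1 or without SGC0946 replicate 1, 4 members were lower instead of 2.

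Socs3 had 6933 and 5675 counts under DMSO and 2077 and 4408 under SGC0946, or 255 and 214 CPM against 79.2 and 134 CPM. Both inhibitor libraries were below both controls, and they differed from each other by more than the controls did. The means were 235 ± 29.3 CPM (SD, n = 2) and 107 ± 38.8 (SD, n = 2), and the log2 fold change was −1.14 (SE 0.21). It lay between −1.57 and −0.80 when 1 library was left out. Pim1 stood at 136 and 118 CPM under DMSO and 85.9 and 92.7 under SGC0946, both lower, with a log2 fold change of −0.50 (SE 0.16) that lay between −0.60 and −0.40 when 1 library was left out. The summed 8-cell markers were lower under SGC0946 as well, and their part in these differences was not tested. Singly, Pou5f1 had a log2 fold change of −0.49, Dppa3 −0.29, Obox6 −0.28, Zfp42 −0.21, Tfap2c −0.16 and Gata3 0.19. None of them passed in edgeR.

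Of the receptor chains and signal transducers, Jak1 and Lifr had groups that did not overlap. Jak1 stood at 52.9 and 41.0 CPM under DMSO and 76.6 and 57.1 under SGC0946, without overlap, with a log2 fold change of 0.51 (SE 0.22) that was 0.29 without SGC0946 replicate 1 and 0.71 without SGC0946 replicate 2. Stat3 had 20.6 and 25 CPM against 38.7 and 23.8, and Il6st 5.27 and 8.48 against 7.66 and 10.0, both overlapping. The Stat3 log2 fold change of 0.46 was 0.07 without SGC0946 replicate 1, and the Il6st value of 0.36 was 0.06 without DMSO replicate 1. Lifr was close to the limit of detection, with 30 and 0 counts under DMSO and 35 and 77 under SGC0946, so its fitted change carries little information.

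The remaining targets were either low or level. Junb had 2.14 and 3.81 CPM under DMSO and 7.09 and 4.78 under SGC0946, higher in both, with a log2 fold change of 1.00 (SE 0.58) that lay between 0.64 and 1.47 when 1 library was left out. Pim3 had 81.7 and 97.1 CPM against 94.4 and 93.1, Gbx2 5.05 and 7.05 against 9.26 and 3.74, and Bcl3 5.78 and 2.90 against 6.52 and 3.86. These 3 overlapped between groups, and each changed sign when at least 1 library was left out.

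**Figure D3:**
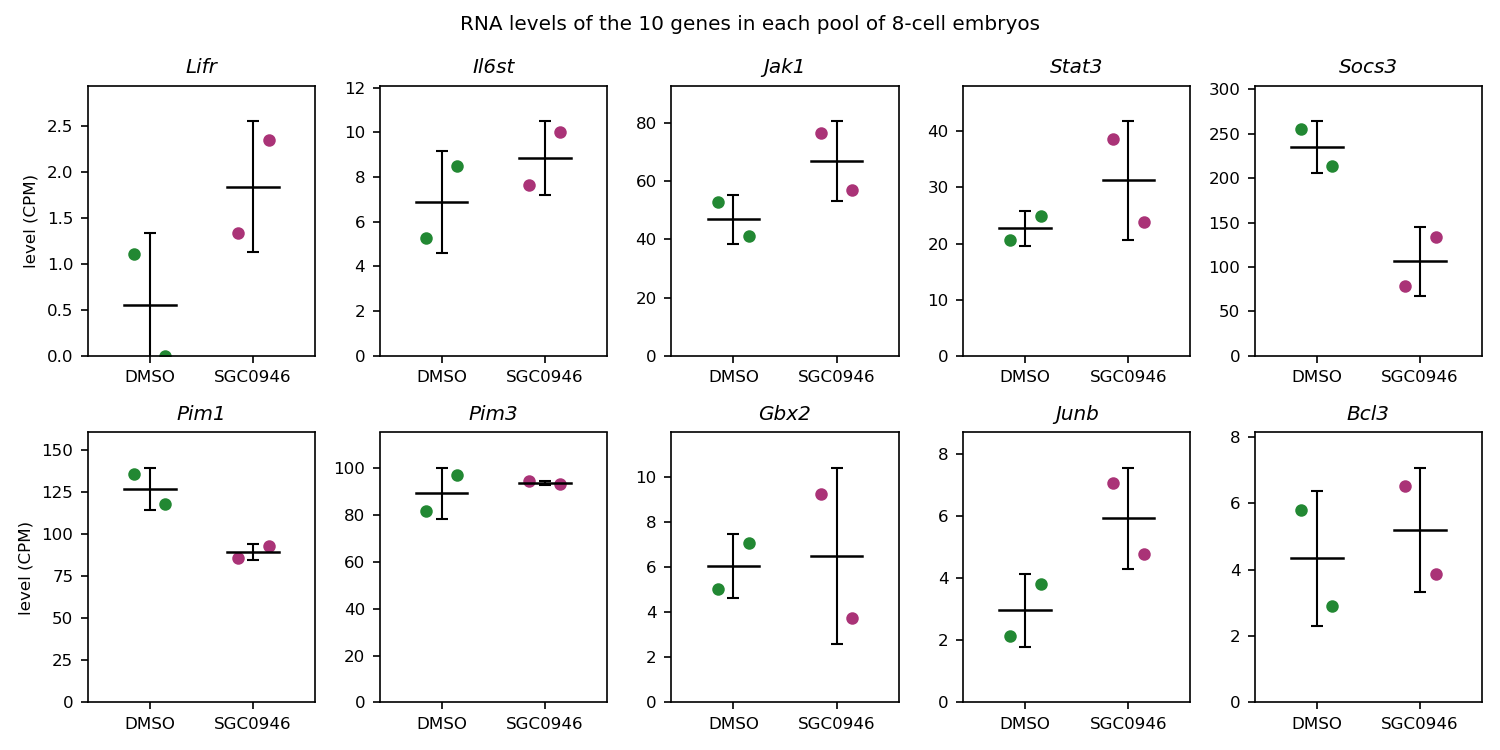
RNA level in CPM (vertical axes, from 0) of the 10 genes in each pool of 8-cell embryos, under DMSO (2 libraries) or SGC0946 (2 libraries); points are libraries, and lines and bars are the mean and SD. Socs3 and Pim1 lie lower in both inhibitor libraries, and Lifr, Jak1 and Junb higher.

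Of the wider pathway list, 39 of 45 genes were tested in embryos, 25 had a log2 fold change below 0, and the median was −0.11. Over all genes tested, 48.6% were below 0 and the median was 0.01. In the alternative settings the count below 0 ran from 21, where every library needed at least 10 counts, to 26. The number of list genes fitted was not the same in each setting. Tfcp2l1, which had risen in KO mESCs, stood at 420 and 359 CPM under DMSO and 191 and 231 under SGC0946, a log2 fold change of −0.89 (SE 0.14). Klf5 had −0.25, Myc −0.37, Osm −0.97 and Ier3 −1.47 on the same scale, with Ier3 at 1.94 ± 0.08 CPM (SD, n = 2) under DMSO and 0.692 ± 0.66 (SD, n = 2) under SGC0946. Socs6 had 0.66, Zfp36 0.24, Pias2 0.12, Jak2 −0.01, Socs1 −0.09, Il11ra1 −0.13 and Stat2 −0.33. Cntfr and Fos were too low to be fitted.

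Side by side, Socs3 had a log2 fold change of 1.08 in Dot1L KO mESCs and −1.14 in inhibitor-treated embryos, while Pim1 had −0.29 and −0.50 and Junb 0.55 and 1.00. The cells, the way DOT1L was targeted (gene knockout or inhibitor), the library kit and the count table all differ between these comparisons, so the difference was not tested. Among 10681 genes fitted in both tables at 1 CPM or more, the genes whose pair of log2 fold changes lay nearest to that of Socs3 by Euclidean distance were Gnb3 (1.07 and −1.03), Pygl (1.03 and −1.02), Pcdh9 (0.96 and −1.03), Polr3gl (0.95 and −1.26) and Ngef (1.10 and −0.94). Within its own table and not normalized for gene length, the reference level of Socs3 ranked at the 77.7th percentile of tested genes in WT mESCs and at the 93.9th in DMSO embryos. Lifr ranked at the 93.4th and the 8.27th percentile, and Il6st at the 92.8th and the 42.2nd. Pim1 (89.9 and 88.0) and Pim3 (82.4 and 83.8) held similar ranks in both.

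**Figure D4:**
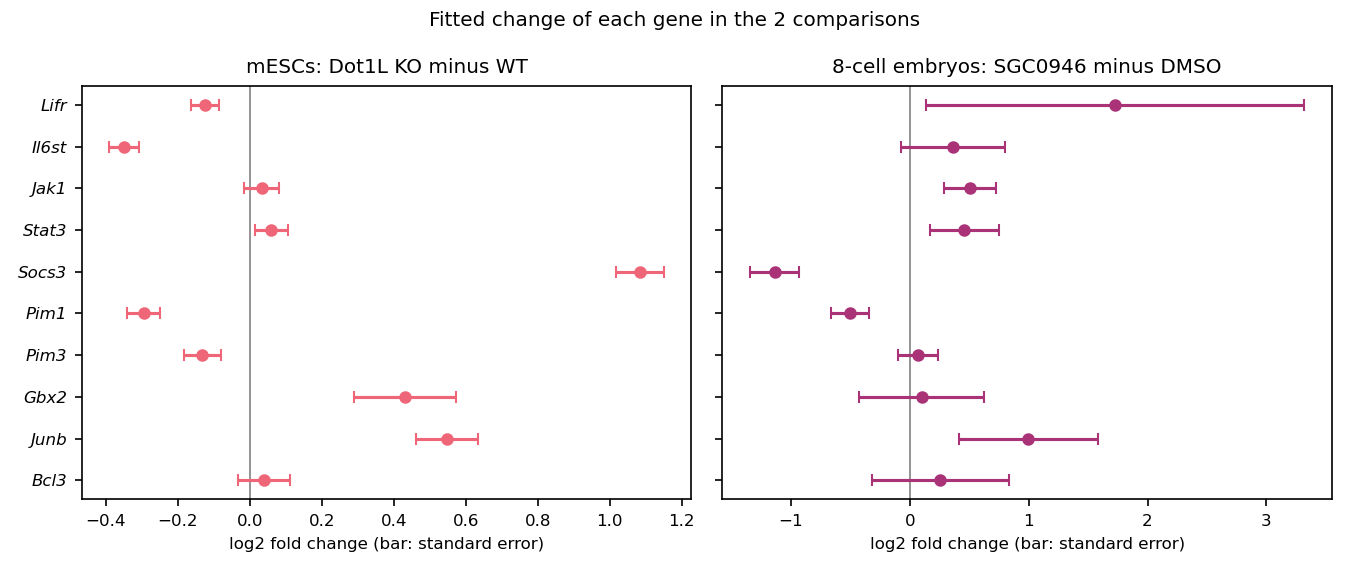
Fitted log2 fold change with its standard error for the 10 genes in mESCs (left, KO minus WT) and 8-cell embryos (right, SGC0946 minus DMSO), on axes of different range. Socs3 is the highest point on the left (1.08) and the lowest on the right (−1.14), and the bars on the right are wider.

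All 10 members carried H3K79me2 peaks in both WT mESC lists, and 6 carried H3K79me3 peaks in both: Socs3, Pim1, Pim3, Gbx2, Junb and Bcl3. Over all 18544 genes with a position, 44.4% were marked in this way for H3K79me2 and 11.2% for H3K79me3. Among genes expressed at least as highly as the lowest member in WT mESCs (6.76 CPM), the shares were 71.5% and 16.8%. No member overlapped a peak in any KO list, against 0.108% of genes for H3K79me2 and 0.976% for H3K79me3. These KO lists were short for the whole genome, 16 and 12 peaks for H3K79me2 and 178 and 328 for H3K79me3. Peak folds and −log10 q values are the authors' own, and with 2 libraries per genotype no test was made.

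The members with H3K79me3 were the short genes. They span 1.84 to 14.4 kb (median 3.90 kb), and the 4 without it, Lifr, Il6st, Jak1 and Stat3, span 42.8 to 113 kb. Those 4 encode the receptor chains and the signal transducers, and the 6 with H3K79me3 are the inhibitor and the targets. Il6st and Jak1 had H3K79me3 peaks in WT replicate 1 only, over 1.28% and 0.339% of the gene body, and Lifr and Stat3 had none. WT replicate 2 held 7338 H3K79me3 peaks in all, against 19800 in replicate 1.

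The Socs3 peaks covered most of the gene, which spans 4.26 kb. In H3K79me2 the main peak ran over chr11:117965390-117969113 at 9.0-fold enrichment (−log10 q 32) in WT replicate 1 and over chr11:117965363-117969189 at 12.7-fold (41.5) in replicate 2. In H3K79me3 it ran over chr11:117965803-117969068 at 9.92-fold (32.3) and over chr11:117966247-117968711 at 11.8-fold (32.7). The H3K79me2 peak began 253 and 177 bases downstream of the start site, after the promoter window printed above. Peaks covered 71.3% and 73.1% of the Socs3 body for H3K79me2 in the 2 replicates, and 70.2% and 57.9% for H3K79me3. The median over all marked genes, whatever their length, was 22.2% and 19.7% for H3K79me2 and 6.72% and 3.11% for H3K79me3. No comparison with genes of similar length was made.

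Peaks covered more of Junb and Pim3 than of the other members. Gbx2, which spans 3.22 kb, is shorter than Pim3 (3.53 kb) and was covered less. H3K79me2 covered 89.1% and 83.9% of Junb, 82.9% and 82.6% of Pim3, 55.0% and 55.7% of Gbx2, 53.4% and 65.2% of Pim1 and 40.2% and 43.1% of Bcl3. For H3K79me3 the shares were 85.7% and 70.9% for Junb, 82.2% and 70.1% for Pim3, 42.1% and 19.6% for Pim1, 26.4% and 18.4% for Gbx2 and 9.77% and 6.15% for Bcl3. The Pim3 H3K79me2 peaks also ran past the end of the gene. Among the long genes, H3K79me2 covered 34.9% and 35.5% of Stat3, 27.3% and 24.8% of Il6st and 21.0% and 19.6% of Lifr. RefSeq's span for Lifr, chr15:7090610-7197489, begins well upstream of its first listed start site, 7129572. No WT peak lay in that upstream stretch, which the Lifr shares include.

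Jak1 stood apart, with thin and scattered H3K79me2. Its peaks covered 1.77% and 2.12% of the gene, and the tallest reached 3.8-fold (−log10 q 4.62) and 3.89-fold (4.78). Jak1 was the member that lost H3K79me2 when only peaks with a −log10 q of at least 5 were kept, which left 9. The same cut left 4 members with H3K79me3. Gbx2 (highest −log10 q 4.89 in WT replicate 2) and Bcl3 (3.66 and 4.38) no longer counted for that mark. An RNA level of 78.0 to 82.5 CPM in WT accompanied the low H3K79me2 values of Jak1. The first listed start site lay inside an H3K79me2 peak in WT replicate 1 for Bcl3 and for no other member, and in replicate 2 for none. By the same rule, the shares were 2.43% and 2.09% over the 6548 marked genes with a listed start site. Lifr and Pim1 each have a further listed start site inside the gene. That of Lifr lay inside an H3K79me2 peak in both WT replicates, and that of Pim1 in replicate 1 only.

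**Figure D5:**
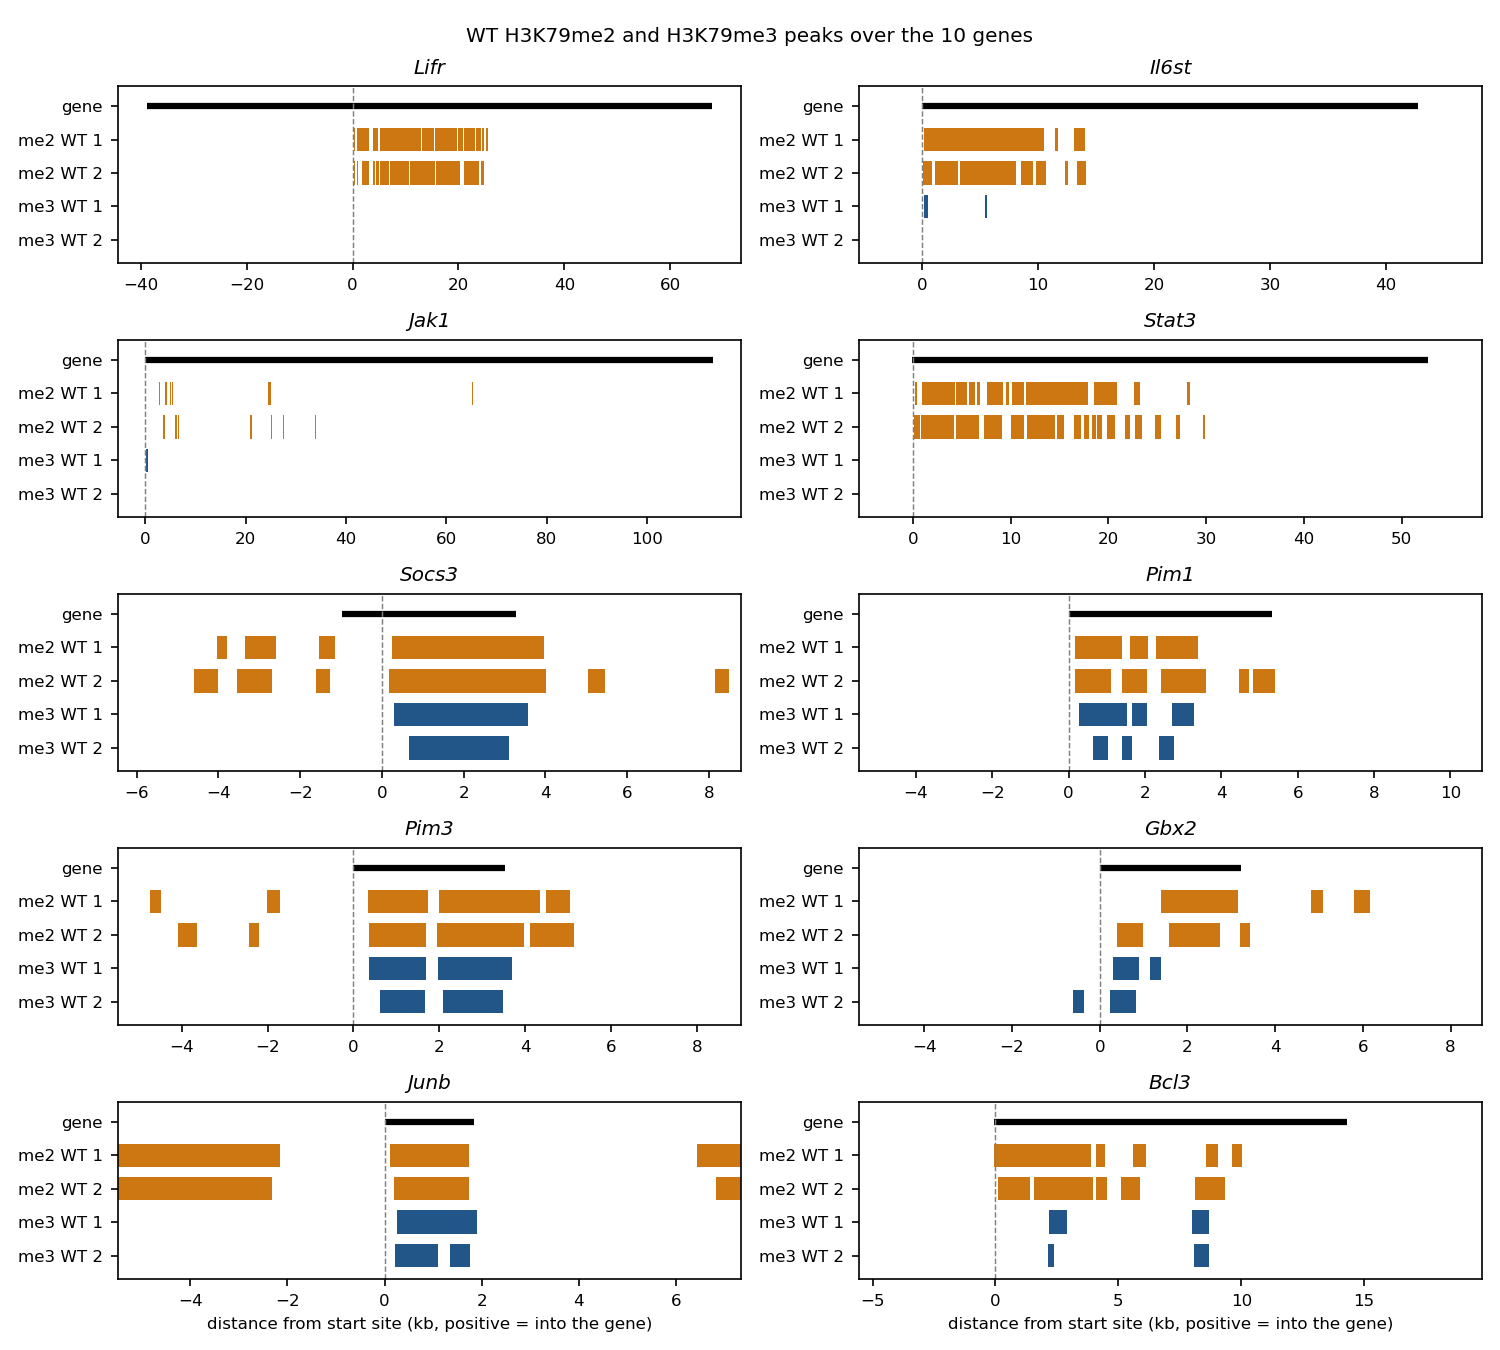
WT H3K79me2 (orange) and H3K79me3 (blue) peaks of each replicate along the 10 genes (black bars). Horizontal axes, each with its own range, give the distance in kb from the first listed start site, positive into the gene. H3K79me2 peaks cover 71.3% to 89.1% of Socs3, Pim3 and Junb and stop well before the end of Lifr, Il6st and Stat3, while Jak1 has only thin H3K79me2 peaks.

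Members with the marks in WT differed in how their RNA behaved in KO mESCs. Of the 6 members with both marks, Socs3, Junb and Gbx2 rose, Pim1 fell, and Pim3 and Bcl3 did not pass the test. Of the 4 with H3K79me2 alone, Il6st and Lifr fell and Jak1 and Stat3 did not pass. With 10 genes chosen with results known, this is a description of the members only.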

How the data were processed

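RNA was measured in 5 mESC and 4 embryo libraries and histone marks in 8 ChIP libraries with 8 inputs. The authors deposited estimated counts per gene for mESCs (values that need not be whole; Socs3, Pim3, Gbx2, Junb and Bcl3 were whole in every library) and whole-number counts for embryos. The submitters' processing notes name kallisto, STAR and HTSeq for RNA, Bowtie2 and MACS2 for ChIP, and build mm10; their roles and versions are not given in the sources used here. The deposited peak lists give, per library, each peak's fold enrichment ratio and −log10 p and q values, all the authors' own.

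The members and gene lists were chosen with earlier results of these data known. Estimated counts were rounded, and each table was fitted alone with edgeR 4.0.16 in R 4.3.3 (filterByExpr, TMM, quasi-likelihood F test, Benjamini-Hochberg adjustment over all tested genes, threshold 0.05). The 69 mESC entries without a symbol held at most 0.0163% of a library's counts and were kept when the table was fitted. A gene was marked when at least 1 bp of its RefSeq span (GRCm38.p6) overlapped a peak in both WT lists. Named pathway genes were those called with a log2 fold change of at least 0.5 in size and a mean of at least 1 CPM, plus the 2 lowest p-values of each group. Alternatives were DESeq2 1.42.0, limma-voom (limma 3.58.1), other scalings and filters, testing for changes beyond a log2 size of 0.5, a replicate block, and leaving out each library. Averaged over genes with at least 10 counts in a pair of replicates, counts differed by 2.36 to 5.27 times the sampling variance in mESCs. In embryos the values were 27.3 and 36.7 times. On this average the spread between libraries exceeded counting error, by less in mESCs, and genes with few counts were not assessed singly.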

Additional observations from a re-analysis of the deposited data

How the results depend on the processing

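Socs3 kept its direction and call in all 13 mESC alternatives. Against a log2 fold change of 0.5, 1 of the 10 members passed in place of 6, and 5 of the 45 wider pathway genes in place of 23; this test asks for more than a change from 0. Leaving out 1 library gave 4 to 7 members and 14 to 23 pathway genes. Replicate numbers are shared between groups, and no label says what a number marks. Over all tested genes, the difference between replicates 1 and 2 correlated between groups by −0.01 in mESCs and 0.05 in embryos. This correlation cannot tell whether same-numbered libraries shared a day or batch that acted on some genes. With a replicate block, 5 members and 21 pathway genes passed (the Lifr call was lost at an adjusted p of 0.0593), and 3 members were lower in embryos. In embryos, 2 to 4 members were lower when 1 library was left out, 4 of them without DMSO replicate 1 or SGC0946 replicate 1. With at least 50% of the gene body covered in both WT lists, 5 members were marked by H3K79me2 in place of 10 and 3 by H3K79me3 in place of 6. Over all embryo genes, calls went from 0 to as many as 365, without SGC0946 replicate 2, and to 171 with the block; the cause was not tested. The alternatives for the pathway list were chosen after seeing the data. With a KO or embryo library removed, its group has 1 sample, assumed to vary like the others.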
